A study of Mus musculus with 6 samples.

Results

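The mitochondrial respiratory chain is built from 4 enzyme complexes that pass electrons from NADH and succinate to oxygen, and from ATP synthase, counted as complex V, which uses the resulting proton gradient to make ATP. Most of its subunits are encoded by nuclear genes, translated in the cytosol and imported, while a small set is encoded by mitochondrial DNA. In the liver this machinery takes up the electrons that fatty acid oxidation and the citric acid cycle release. Here the nuclear subunit genes were followed in the livers of 15-week-old C57BL/6J mice, in 3 RNA-seq libraries labelled with a pellet of dihydrotestosterone (DHT, an androgen) and 3 labelled placebo. The DHT pellet is the study's model of polycystic ovary syndrome. The labels give no sex, litter or batch and do not say that each library is a separate animal, so each p-value reflects the spread among these libraries, which may be technical.

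The members were all genes of the count tables whose symbol names a nuclear subunit of complexes I to V, taken by symbol alone. They numbered 85 of 49212 genes, after 6 names ending in a pseudogene suffix were left out. Complex I, NADH dehydrogenase, gave 35 genes, complex II, succinate dehydrogenase, 4, complex III, the cytochrome bc1 complex, 9, complex IV, cytochrome c oxidase, 20, and complex V, ATP synthase, 15. Ndufa4, Ndufa4l2 and Cox7a2l, whose names point elsewhere or whose role is in assembling larger complexes, were placed with complex IV. The other 2 symbols, Atp5s and Atp5sl, are not subunits of ATP synthase. The low-count filter kept 80 of the 85 for testing. The 5 not tested all belong to complex IV and are tissue-restricted isoforms (Cox4i2, Cox6a2, Cox7b2, Cox8b and Cox8c).

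Total counts lay between 41336844 and 59257416 in the DHT libraries and between 52814320 and 60209462 in the placebo libraries, so that 3 counts in a library equal 0.0498 to 0.0726 CPM (counts-per-million, counts scaled to the library's total). Hepatocyte markers summed to 79422 to 89780 CPM in DHT and 88175 to 128066 CPM in placebo, with 0 of 8 called. With the replicate number as a block Tat and Cps1 of these 8 were called lower (edgeR adjusted p = 0.0247 and 0.00834), and Tat also without placebo 3 (edgeR adjusted p = 0.0497). Ddx3y, a helicase gene on the Y chromosome, had 75.5 ± 3.21 CPM in DHT and 0.0703 ± 0.0254 CPM in placebo (SD, n = 3 each), with a log2 fold change of 9.82 ± 0.36 (SE, edgeR adjusted p = 3.24e-05), so the Y signal and the DHT label cannot be told apart in any comparison given here. Of the marker lists for other cell types, the T and NK cell list held 1 called gene, Gzma, lower in DHT, with summed levels of 1.22 to 1.74 CPM in DHT and 2.75 to 5.26 CPM in placebo. The adipocyte list also held 1, Cfd, higher in DHT, with sums of 4.59 to 59.97 CPM in DHT and 0.0664 to 0.170 CPM in placebo, and 5 of its 6 markers were too low to test, of which Lep and Ucp1 were at 0 in every library and Adipoq and Plin1 had at most 0.0379 CPM. The block also called Cd3d and Klrb1c (T and NK cells) and Krt19 (cholangiocytes) lower and Alas2 (erythroid cells) higher. Krt19 (−1.666, edgeR adjusted p = 0.0215) and Alas2 (1.635, edgeR adjusted p = 0.0110) were called without placebo 3 as well. The cholangiocyte list summed to 54.4 to 109.6 CPM in DHT and 75.7 to 83.2 CPM in placebo. The erythroid list summed to 621 to 1133 CPM in DHT and 833 to 1309 CPM in placebo. Both sums overlapped between groups, as did the hemoglobin genes Hba-a1, Hbb-bs and Hbb-bt, so Alas2 does not stand for its list. The cholangiocyte sum was mostly Spp1, at 46.9 to 95.1 CPM in DHT and 60.4 to 75.9 CPM in placebo. Krt19, Krt7 and Epcam were lower in DHT without overlap in CPM, against 6.27% of all tested genes, while Spp1, Sox9 and Cftr overlapped. In bulk tissue, fewer cells of a type and less RNA per cell cannot be told apart.

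No nuclear respiratory chain gene passed the test between DHT and placebo. By edgeR's quasi-likelihood test with Benjamini-Hochberg adjustment over all tested genes, 0 of the 80 members were called at an adjusted p under 0.05, against 1.65% of the 15126 tested genes. On simulated counts the same test called 1 of 100 genes changed 2-fold and 81 of 100 changed 4-fold. The absence of a call therefore does not show an unchanged level. At an unadjusted p under 0.05 there were 5 members (Ndufa12, Ndufb10, Ndufs7, Atp5g1 and Atp5o), a smaller share than the 15.9% of all genes. DESeq2 called 1 member, Atp5g1, against 7.03% of genes, and limma voom called 0, against 4.67%. With the replicate number as a block, edgeR called 1 member, Uqcrh, against 10.7% of genes. The fitted log2 fold changes (DHT minus placebo) nevertheless lay mostly on one side: 77 of 80 were below 0, compared with 51.9% of all tested genes, and their median was −0.63, compared with −0.02 for all genes. With library size alone in place of TMM scaling the member median was −0.43, while the median of all genes moved to 0.17, and 74 of 80 members were below 0. Without placebo 3 the member median was −0.12, the median of all genes 0.00, and 60 of 80 members were below 0, with 0 called against 5.54% of genes. Without both libraries numbered 3, a setting added after seeing the data, the member median was −0.24. The median of all genes was then −0.01, and 74 of 80 members were below 0.

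The members' levels differed between libraries of the same group. The 85 members together had 13816, 14128 and 17244 CPM in DHT 1, 2 and 3, against 15359, 13669 and 28049 CPM in placebo 1, 2 and 3. Placebo 3 stood apart at 1.93 times the mean of placebo 1 and 2, and the DHT libraries lay close to those 2. Placebo 3 was the highest of the 6 libraries for 71 of the 80 tested members, and placebo 2 was the lowest for 41. Without placebo 3, the mean summed CPM of DHT over that of placebo was 1.03 for complex I, 1.07 for II, 1.08 for III, 1.14 for IV and 0.972 for V. With all 6 libraries these ratios were 0.767, 0.940, 0.771, 0.771 and 0.803. In CPM without TMM scaling, the direction thus turned for complexes I to IV when that library was left out. In the TMM-scaled fit without placebo 3 it did not turn. The median log2 fold changes of complexes I to IV were then −0.14, −0.12, −0.09 and −0.05.

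**Figure D1:**
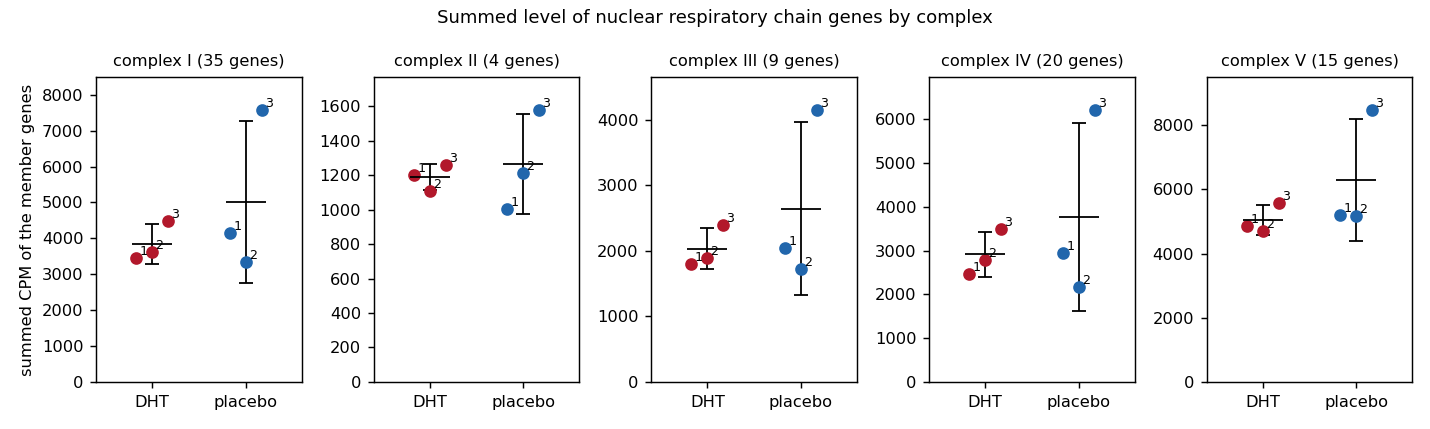
Summed CPM of the member genes of each complex (y axis, from 0) in DHT (left, red) and placebo (right, blue), with 1 numbered point per library and the mean ± SD (n = 3 each) as bars. In each of the 5 panels placebo 3 is the highest point, and the other placebo libraries overlap the DHT libraries.

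Complex I, the entry point for electrons from NADH, had summed levels of 3442, 3615 and 4486 CPM in DHT and 4138, 3337 and 7581 CPM in placebo. The groups overlapped, and 33 of its 35 genes had a fitted fold change below 0, with a median of −0.65. Ndufa12, an accessory subunit, had the smallest p of the complex. Its levels were 50.5, 56.0 and 59.6 CPM in DHT against 73.3, 59.2 and 112.7 CPM in placebo, a log2 fold change of −0.76 ± 0.29 (SE, edgeR adjusted p = 0.262). Ndufb10, an accessory subunit of the membrane arm, had 115.9, 116.4 and 153.5 CPM in DHT and 169.6, 139.3 and 279.9 CPM in placebo (−0.80 ± 0.32, edgeR adjusted p = 0.284). For both genes placebo 2 lay inside the DHT range in CPM and placebo 3 far above it. Ndufs7, a core subunit that carries an iron-sulfur cluster, followed with 70.6, 64.0 and 77.9 CPM in DHT and 93.6, 75.1 and 105.4 CPM in placebo (−0.56 ± 0.24, edgeR adjusted p = 0.310).

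The 2 complex I genes fitted above 0 were Ndufs1 and Ndufa10. Ndufs1, the largest subunit of the electron input arm, had 134.1, 118.7 and 113.4 CPM in DHT and 74.2, 121.7 and 97.4 CPM in placebo (0.13 ± 0.27, edgeR adjusted p = 0.855). Ndufa10, an accessory subunit of the membrane arm, had 207.7, 228.5 and 197.2 CPM in DHT and 187.6, 171.3 and 162.1 CPM in placebo (0.09 ± 0.23, edgeR adjusted p = 0.875). On the CPM scale all 3 DHT values of Ndufa10 lay above the placebo values, but after TMM scaling the groups overlapped. Ndufb9 and Ndufa6 had the highest levels per length in the complex, in RPKM (counts scaled to exon length and to the library total). Ndufb9 averaged 359 ± 99.6 RPKM in DHT and 573 ± 399 RPKM in placebo, and Ndufa6 averaged 264 ± 46.5 RPKM in DHT and 356 ± 179 RPKM in placebo (SD, n = 3 each), where the large placebo spread comes from the one high library.

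**Figure D2:**
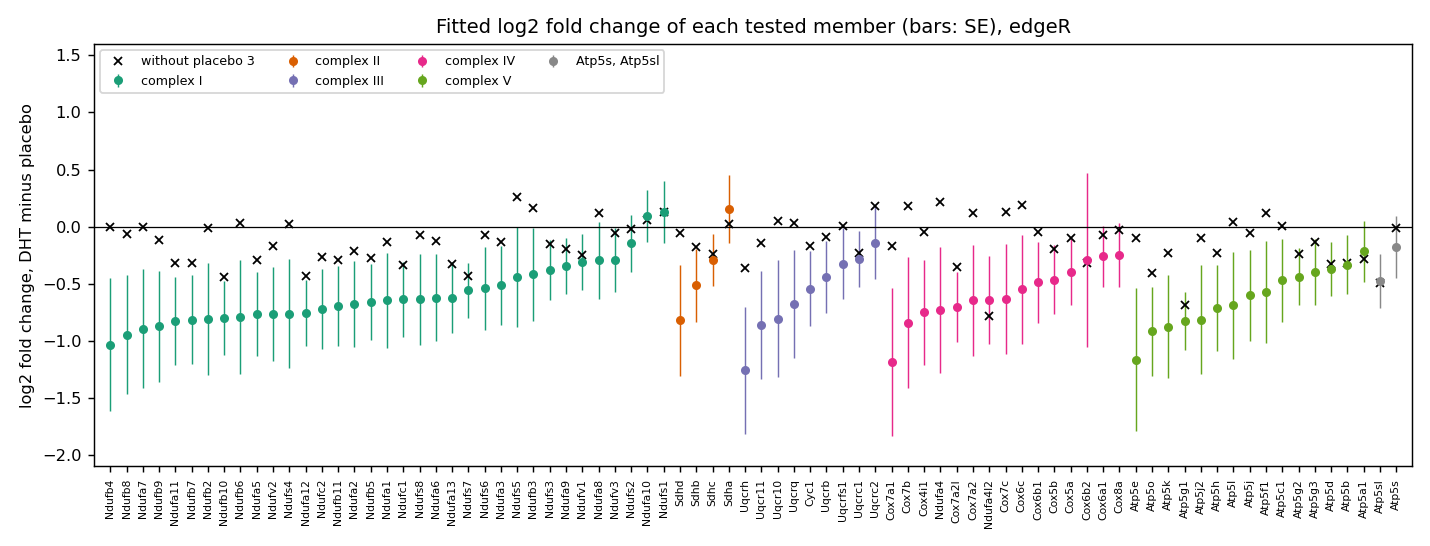
Fitted log2 fold change of the 80 tested members (DHT minus placebo, edgeR), ordered by complex, with bars of ± 1 SE in colour and black crosses for the fit without placebo 3. With all libraries 77 of 80 points lie below 0, and most crosses lie nearer to 0, with a median of −0.12.

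Complex II feeds electrons from succinate into the chain and is the one respiratory complex with no mitochondrially encoded subunit. Its summed level was 1201, 1110 and 1258 CPM in DHT and 1006, 1212 and 1580 CPM in placebo. Its ratio of DHT to placebo was the nearest to 1 of the 5 complexes with all libraries, but not without placebo 3. The 4 genes did not run together. Sdha, the flavoprotein that oxidises succinate, had 595.3, 505.1 and 476.5 CPM in DHT and 354.4, 556.5 and 331.0 CPM in placebo (0.15 ± 0.30, edgeR adjusted p = 0.837). Its lowest library was placebo 3, the one in which most members were highest. Sdhd, a membrane anchor, had 169.3, 178.8 and 267.1 CPM in DHT and 178.4, 196.6 and 569.8 CPM in placebo (−0.82 ± 0.48, edgeR adjusted p = 0.438). Sdhb, the iron-sulfur subunit, lay between them at 237.1, 225.0 and 307.2 CPM in DHT and 254.3, 256.0 and 450.3 CPM in placebo (−0.52 ± 0.32, edgeR adjusted p = 0.463). Sdhc, the other anchor, had 199.3, 201.1 and 206.8 CPM in DHT and 219.3, 203.2 and 228.5 CPM in placebo, where placebo 3 stood close to the others (−0.29 ± 0.23, edgeR adjusted p = 0.558).

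Complex III passes electrons from ubiquinol to cytochrome c. Its 9 genes summed to 1807, 1899 and 2399 CPM in DHT and 2044, 1723 and 4155 CPM in placebo, and all 9 fitted values were below 0 with a median of −0.54. Uqcrh, the small acidic hinge protein that contacts cytochrome c1 (GRCm38 chromosome 4, 116066965 to 116075071), had 123.8, 121.3 and 209.4 CPM in DHT and 213.6, 131.2 and 602.1 CPM in placebo. Each DHT library was below the placebo library of the same number, although the groups overlapped. Its log2 fold change was −1.26 ± 0.56 (edgeR adjusted p = 0.320), and −0.995 ± 0.31 with the replicate block (edgeR adjusted p = 0.0259). Without placebo 3 it was −0.36 (edgeR adjusted p = 0.508). Uqcr11 and Uqcr10, both small accessory subunits, had the highest levels per length in the complex. Uqcr11 averaged 244 ± 53.5 RPKM in DHT and 387 ± 262 RPKM in placebo, and Uqcr10 averaged 217 ± 45.2 RPKM in DHT and 331 ± 254 RPKM in placebo (SD, n = 3 each). Cyc1 (cytochrome c1), Uqcrfs1 (the Rieske iron-sulfur protein) and the core proteins Uqcrc1 and Uqcrc2 had fitted values of −0.54, −0.33, −0.29 and −0.14.

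Complex IV reduces oxygen to water. Its 20 genes summed to 2471, 2781 and 3489 CPM in DHT and 2937, 2177 and 6222 CPM in placebo. Placebo 3 lay at 2.43 times the mean of placebo 1 and 2, the largest such ratio of the 5 complexes, and all 15 tested genes were fitted below 0. Cox7a2l, which takes part in joining complexes III and IV, had the smallest p, with 61.2, 66.7 and 81.6 CPM in DHT and 83.4, 74.3 and 139.6 CPM in placebo (−0.70 ± 0.31, edgeR adjusted p = 0.316). Cox6a1 and Cox8a had the highest mean RPKM of the 85 members over the 6 libraries, although in placebo alone Ndufb9 averaged more, and their groups overlapped. Cox6a1 averaged 504 ± 34.0 RPKM in DHT and 528 ± 117.6 RPKM in placebo (−0.26 ± 0.27, edgeR adjusted p = 0.662), and Cox8a averaged 466 ± 35.1 RPKM in DHT and 486 ± 133 RPKM in placebo (−0.25 ± 0.28, edgeR adjusted p = 0.696). The order of levels rests on the exon length in the tables: with the length of 1 coding transcript, Ndufa4 averaged 859 RPKM over the 6 libraries and Cox6a1 634 RPKM.

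Several complex IV subunits have a second gene that is used in muscle, lung, testis or low oxygen, and the liver libraries held nearly only the widely expressed one. Cox4i2, an isoform known from lung, made up at most 0.195% of the Cox4i1 and Cox4i2 level per length in any library. Cox6a2 and Cox8b, known from striated muscle, reached at most 0.0265% and 0.0470% of theirs. Cox6b2, known from testis, reached 0.115%, and Cox7b2 had 0 counts in all 6 libraries, which allows up to 0.0498 to 0.0726 CPM per library by counting error. Cox7a1, the muscle isoform, was the exception at 2.34%, 3.46% and 1.53% of the Cox7a1 and Cox7a2 level in DHT and 3.46%, 2.00% and 3.73% in placebo. It had 1.55, 2.61 and 1.55 CPM in DHT and 2.76, 1.05 and 7.54 CPM in placebo, with placebo 3 highest (−1.19 ± 0.65, edgeR adjusted p = 0.404). Skeletal muscle markers summed to 0.561 to 0.871 CPM in DHT and 0.745 to 1.86 CPM in placebo, with placebo 3 highest. Of these 6 markers 1 could be tested and was not called, and Ckm and Tnnc2 were at 0 in every library. Their part in the Cox7a1 values was not tested. Ndufa4l2, a homologue of Ndufa4 known as a hypoxia-induced gene, made up 0.485%, 0.750% and 0.467% of that pair in DHT and 1.28%, 0.862% and 0.210% in placebo.

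Complex V made up the largest part of the members' CPM, between 32.3% and 35.2% in the DHT libraries and between 30.2% and 37.9% in the placebo libraries. It summed to 4868, 4697 and 5577 CPM in DHT and 5200, 5183 and 8477 CPM in placebo, and all 15 fitted values were below 0 with a median of −0.60. The alpha and beta subunits of its catalytic head did not share the high level in placebo 3, unlike the epsilon subunit Atp5e given further on. Atp5a1, the alpha subunit, had 1084, 963 and 941 CPM in DHT and 891, 1243 and 914 CPM in placebo (−0.22 ± 0.27, edgeR adjusted p = 0.723). Atp5b, the beta subunit that makes ATP, had 1205, 1004 and 1143 CPM in DHT and 1079, 1379 and 1241 CPM in placebo (−0.33 ± 0.26, edgeR adjusted p = 0.556). In both genes placebo 2, not placebo 3, was the highest library. Atp5o, which links the peripheral stalk to the catalytic head, had 156.7, 159.7 and 219.1 CPM in DHT and 242.1, 177.3 and 462.8 CPM in placebo (−0.92 ± 0.39, edgeR adjusted p = 0.303). Exons of other genes overlap 44.0% of its length, 1 of them on the same strand, so its counts are uncertain.

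Atp5g1 was the member with the smallest p. It encodes the same mature protein as Atp5g2 and Atp5g3, subunit c of the proton-conducting ring, with another import sequence (GRCm38 chromosome 11, 96068852 to 96075670). It had 139.4, 146.9 and 167.6 CPM in DHT against 240.0, 190.5 and 276.2 CPM in placebo. The groups did not overlap, and placebo 3 exceeded the other placebo libraries far less than for most members. The log2 fold change was −0.83 ± 0.25 (edgeR adjusted p = 0.173). It was −0.69 without placebo 3 (edgeR adjusted p = 0.0976) and −0.82 with the replicate block (edgeR adjusted p = 0.0568), and it passed the threshold with DESeq2 (adjusted p = 0.0282) and with a length trend removed together with the block (edgeR adjusted p = 0.0296, a fit that called 9.54% of all genes). Over all alternatives the fitted value stayed between −0.97 and −0.64 and the adjusted p between 0.0282 and 0.535. Per length, Atp5g1 supplied 10.4%, 9.87% and 10.2% of the 3 subunit c genes in DHT and 14.6%, 13.5% and 12.0% in placebo (10.2 ± 0.27% and 13.4 ± 1.30%, SD, n = 3 each). Atp5g2 supplied 13.03 ± 0.47% in DHT and 13.02 ± 1.79% in placebo, and Atp5g3 supplied 76.8 ± 0.74% in DHT and 73.6 ± 2.08% in placebo. Shares were not tested, and with 3 libraries against 3 an exact permutation test could not give a p below 0.10.

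**Figure D3:**
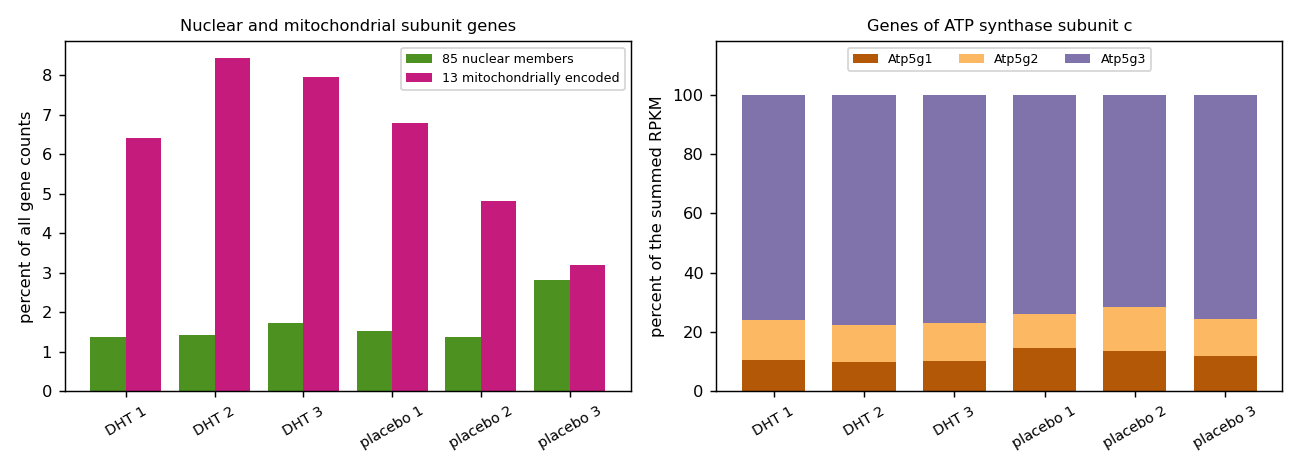
Left, percent of all gene counts in the 85 nuclear members (green) and in 13 mitochondrially encoded subunit genes (magenta) for each library, DHT libraries to the left. Right, percent of the summed RPKM of the 3 subunit c genes, where the Atp5g1 band (bottom) takes 9.87% to 10.4% in DHT and 12.0% to 14.6% in placebo.

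Counting members whose groups did not overlap gave a similar result. On TMM-scaled CPM, 11 of 80 members were lower in all 3 DHT libraries than in any placebo library, against 10.9% of all tested genes, and 0 were higher in all 3, against 12.7%. The 11 were Ndufa9, Ndufa12, Ndufb10, Ndufs7, Sdhc, Cox7a2l, Ndufa4l2, Atp5d, Atp5g1, Atp5g2 and Atp5sl. On CPM of all gene counts 1 member was lower without overlap, Atp5g1, against 6.27% of all tested genes, and 1 was higher, Ndufa10, against 21.1%.

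The excess in placebo 3 was graded across the members. On the log2 scale with TMM, placebo 3 lay above the mean of placebo 1 and 2 by a median of 1.07, and 75 of 80 members were above 0, whereas the median of all tested genes was −0.02 and 48.9% were above 0. Atp5e, the epsilon subunit of ATP synthase, had the largest difference at 2.16. It had 863.5 CPM in placebo 3 against 265.9 and 147.4 CPM in placebo 1 and 2, a ratio of 4.18 to their mean. Ndufb4 (2.06), Cox7b (2.04), Ndufa4 (1.93), Cox7a1 (1.89) and Uqcrh (1.88) came next. At the other end stood Sdha (−0.39), Ndufa4l2 (−0.33), Atp5a1 (−0.17), Ndufa10 (−0.11) and Atp5sl (−0.03), with Cox6b2 at 0.01, Atp5b at 0.06 and Ndufs1 at 0.07. Of these 8, Sdha, Atp5a1, Ndufa10, Atp5b and Ndufs1 have coding lengths of 1000 bases or more and the others do not. DHT 3 showed a smaller difference of the same sign over DHT 1 and 2, with a median of 0.33 and 74 of 80 members above 0.

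**Figure D4:**
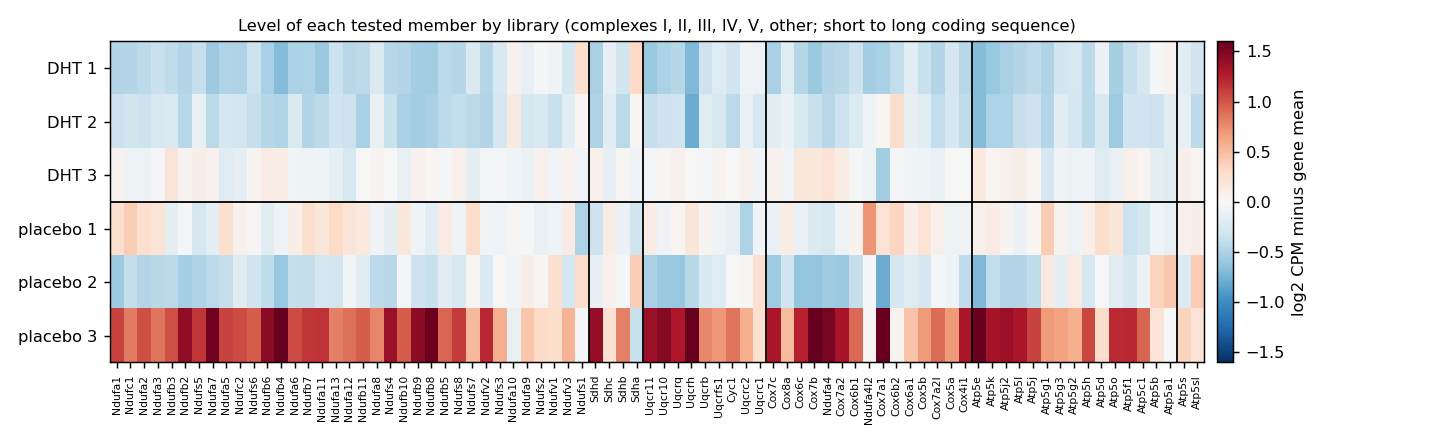
Level of each tested member in each library as log2 CPM minus the gene's mean over the 6 libraries (red above, blue below), with DHT rows above placebo rows and genes grouped by complex from short to long coding sequence. The placebo 3 row is red for most genes and pale or blue for the longest genes of complexes I, II and V (Ndufs1, Sdha, Atp5b and Atp5a1).

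Coding length ran with this difference. The 19 members with under 300 coding bases had a median log2 difference of 1.58 between placebo 3 and placebo 1 and 2. The 29 with 300 to 500 bases had 1.11, the 21 with 500 to 1000 bases had 0.96, and the 11 with 1000 bases or more had 0.17. All tested genes of the same classes showed the same order at lower values, 0.98, 0.76, 0.31 and −0.32. Spearman's rho across genes between coding length and the difference was −0.549 over the 80 members and −0.480 over 12906 tested genes with a coding transcript. Genes of 1 library share its RNA and depth, so these are descriptions without a test. When a trend on exon length was removed per library, the median fitted fold change of the members was −0.31, with 72 of 80 below 0 and 0 called, against 2.48% of all genes. Exon length ran less closely with the difference over the members (rho −0.292) than coding length did. This fit therefore does not show what remains once a trend on coding length is removed. What sets placebo 3 apart was not tested.

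**Figure D5:**
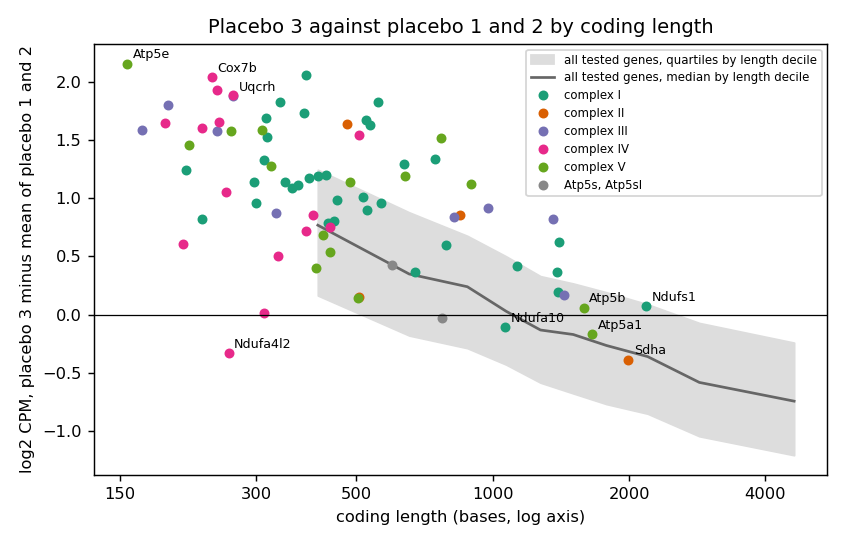
Difference in log2 CPM between placebo 3 and the mean of placebo 1 and 2 (y axis) against coding length in bases (log x axis) for the tested members, coloured by complex, with the median and quartiles of all tested genes in grey. Atp5e (2.16) is at the short end and Sdha (−0.39) at the long end.

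The 13 subunit genes of mitochondrial DNA went the other way. They took 6.40%, 8.43% and 7.95% of all gene counts in DHT and 6.79%, 4.80% and 3.20% in placebo, while the nuclear members took 1.38%, 1.41% and 1.72% in DHT and 1.54%, 1.37% and 2.81% in placebo. The ratio of nuclear to mitochondrial counts was therefore 0.216, 0.168 and 0.217 in DHT and 0.226, 0.285 and 0.877 in placebo, with placebo 3 again apart. None of the 13 was called with all libraries (edgeR), and 2 had an unadjusted p under 0.05, against 15.9% of all genes. With the replicate block 2 were called higher, against 10.7% of all genes called in either direction. The median log2 fold change of the 13 was 0.42, with 1 below 0. Without placebo 3 it was 0.13, with 5 of 13 below 0. The 2 called with the block were mt-Nd4l and mt-Nd5, which encode membrane subunits of complex I. mt-Nd5 had 5986, 8160 and 6995 CPM in DHT and 3038, 3761 and 1641 CPM in placebo, groups that did not overlap (1.14 ± 0.35, edgeR adjusted p = 0.178, and 0.0275 with the block). mt-Nd4l had 4.71, 5.93 and 5.93 CPM in DHT and 1.81, 2.27 and 1.69 CPM in placebo (1.33 ± 0.28, edgeR adjusted p = 0.0659, 0.00467 with the block and 0.0349 without placebo 3).

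Genes that work around the complexes gave 1 call with all libraries, against 1.65% of all tested genes. Among 18 genes of electron carriers and coenzyme Q synthesis, Coq10b, a coenzyme Q-binding protein, was lower in DHT, at 20.2, 20.9 and 23.8 CPM against 64.7, 41.1 and 98.9 CPM in placebo. Its log2 fold change was −1.85 ± 0.34 (edgeR adjusted p = 0.0414). The call was kept without placebo 3 (−1.46, edgeR adjusted p = 0.00708). It was lost with library size alone (−1.66, adjusted p = 0.0542), with a filter of 1 CPM in 3 libraries (−1.88, 0.0537) and without placebo 1 (−1.94, 0.139), DHT 1 (−1.82, 0.182), DHT 2 (−1.81, 0.183) or DHT 3 (−1.91, 0.121), all by edgeR and with folds of about the same size. With the block, Pdss2, Coq8a (0.98, edgeR adjusted p = 0.0290) and Etfdh (0.91, edgeR adjusted p = 0.0379) of this list were also called, higher in DHT. The block called 10.7% of all genes in either direction. Without placebo 3, Coq8b was also called, lower in DHT (−0.86 ± 0.19, edgeR adjusted p = 0.0318), against 5.54% of all genes called in either direction. Pdss2, part of the enzyme that makes the coenzyme Q side chain, had 15.6, 16.2 and 15.2 CPM in DHT and 7.99, 8.18 and 7.06 CPM in placebo, groups that did not overlap (0.83 ± 0.22, edgeR adjusted p = 0.128, and 0.0426 with the block). Coq8a, Etfdh and Coq8b were named after their values were seen.

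Assembly factors of the complexes, 47 tested, had 0 called and a median of −0.37. With the block 3 of the 47 were called lower, against 10.7% of all genes called in either direction. These were Uqcc3 and Ndufaf8, which help to build complexes III and I, and Tmem126a, named after its values were seen. With the block, Ndufaf8 had a log2 fold change of −0.81 (edgeR adjusted p = 0.0451) and Tmem126a one of −0.85 (edgeR adjusted p = 0.0417). Without placebo 3 the median of the list was −0.0028, 24 of 47 were below 0, and 1 gene was called, Cox19, higher in DHT (1.20 ± 0.24, edgeR adjusted p = 0.0232), also named after its values were seen. Uqcc3 had 20.1, 18.8 and 24.1 CPM in DHT and 37.0, 20.5 and 46.6 CPM in placebo (−0.91 ± 0.33, edgeR adjusted p = 0.234, and 0.0349 with the block). Of 7 tested genes that the symbols do not catch, subunit genes and the inhibitor gene Atpif1, 0 were called. Atpif1, the inhibitor of ATP synthase, had 9.50, 17.2 and 16.4 CPM in DHT and 23.2, 18.4 and 51.7 CPM in placebo (−1.32 ± 0.44, edgeR adjusted p = 0.204, and 0.00303 with the block). Without placebo 3 its log2 fold change was −0.72 (edgeR adjusted p = 0.139), and 33.7% of its exon length is shared with other genes. The 14 citric acid cycle genes had 0 called and a median of −0.02. Citrate synthase (Cs) had 180.8, 221.3 and 134.3 CPM in DHT and 90.9, 119.5 and 69.7 CPM in placebo, with a log2 fold change of 0.75 ± 0.31 (edgeR adjusted p = 0.290). On the CPM scale its groups did not overlap, but after TMM scaling they did. On that CPM scale 21.1% of all tested genes were higher in DHT without overlap.

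Of 17 regulators of respiratory genes, 0 were called with all libraries. Without placebo 3, 2 were called lower, Ppargc1a and Ppargc1b, the coactivators that drive mitochondrial gene expression, against 5.54% of all genes called in either direction. Ppargc1a had 5.84, 7.52 and 5.06 CPM in DHT and 11.5, 11.1 and 5.07 CPM in placebo, so that placebo 3 lay within the DHT range (−0.77 ± 0.35, edgeR adjusted p = 0.335, and −1.06 with adjusted p = 0.0341 without placebo 3). Ppargc1b was named after its values were seen. Esrra, a nuclear receptor that binds respiratory gene promoters, had 23.5, 29.98 and 32.3 CPM in DHT and 30.4, 29.99 and 52.4 CPM in placebo (−0.59 ± 0.30, edgeR adjusted p = 0.370, and −0.26 without placebo 3).

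Ribosomal protein genes were also highest in placebo 3 when summed. The 78 mitochondrial ribosomal protein genes had 0 called, a median log2 fold change of −0.42 and, with the block, 3 called lower, while without placebo 3 their median was −0.03. The 81 tested cytosolic ribosomal protein genes had 0 called, a median of −1.18, and 62 with an unadjusted p under 0.05, against 15.9% of all genes. Under the block 3 mitochondrial and 54 cytosolic genes were thus called lower, against 10.7% of all genes called in either direction. The summed level of the cytosolic genes was 10669, 12083 and 17094 CPM in DHT and 20119, 14021 and 43146 CPM in placebo. Without placebo 3 their median was −0.55, with 78 of 81 below 0. In that fit 1 of them was called lower, Rps28 (−1.10, edgeR adjusted p = 0.0487), against 5.54% of all genes called in either direction. Near-identical processed copies exist for many ribosomal and respiratory genes, and how reads that fit several places were counted is not given in the sources used here.

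Many nuclear respiratory genes carry promoter sites for the factors NRF1, the ETS protein GABPA and YY1. In the RefSeq promoter table (GRCm38.p6, 250 bases before to 50 after the gene start), 69 of the 85 members matched, with 75 promoters. Searched on both strands, the NRF1 consensus (GCGCA, then C or T, then GCGC) was in 13.3% of these and in 2.27% of all 32851 promoters, the ETS letters CCGGAAG in 21.3% and 8.86%, and the YY1 letters AAGATGG in 17.3% and 6.34%. A match is a description of letters and shows no binding. The 200 bases before the start are printed for 5 members, chosen after their values were seen. Uqcrh (chr4:116075071-116075270) and Atp5e (chr2:174464102-174464301) were among the members with the largest difference between placebo 3 and placebo 1 and 2. Sdhd (chr9:50603850-50604049) had the smallest p of complex II. Sdha (chr13:74350241-74350440) had the lowest such difference, and Atp5g1 (chr11:96075632-96075831) had the smallest p of all. All 5 genes lie on the minus strand, sequences run 5′ to 3′ along the gene, and capitals mark a motif match on either strand, with CTTCCGG as the ETS letters read on the other strand. Uqcrh and Atp5e hold 1 ETS match each and Sdhd holds 1 NRF1 and 1 ETS match that do not overlap, while the printed bases of Sdha and Atp5g1 hold none of the 3 motifs. Of the other members named above as next after Atp5e in placebo 3, Ndufb4 has an NRF1 match in its promoter. Cox7b, Ndufa4 and Cox7a1 have none of the 3 motifs.
Uqcrh: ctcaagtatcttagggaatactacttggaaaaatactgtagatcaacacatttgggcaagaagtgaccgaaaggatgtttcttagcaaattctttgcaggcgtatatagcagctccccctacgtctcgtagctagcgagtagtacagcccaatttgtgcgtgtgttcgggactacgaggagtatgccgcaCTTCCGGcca
Atp5e: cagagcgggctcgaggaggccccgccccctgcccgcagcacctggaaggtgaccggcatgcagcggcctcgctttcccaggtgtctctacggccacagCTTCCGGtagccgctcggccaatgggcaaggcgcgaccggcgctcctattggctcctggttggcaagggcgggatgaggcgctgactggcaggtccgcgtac
Sdhd: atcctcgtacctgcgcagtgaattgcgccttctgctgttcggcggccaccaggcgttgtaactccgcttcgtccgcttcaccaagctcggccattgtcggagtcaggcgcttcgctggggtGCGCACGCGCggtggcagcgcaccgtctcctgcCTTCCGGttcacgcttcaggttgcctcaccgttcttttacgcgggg
Sdha: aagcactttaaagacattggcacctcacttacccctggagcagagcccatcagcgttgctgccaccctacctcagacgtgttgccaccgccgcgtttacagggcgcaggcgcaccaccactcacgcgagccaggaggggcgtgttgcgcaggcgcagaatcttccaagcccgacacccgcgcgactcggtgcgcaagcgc
Atp5g1: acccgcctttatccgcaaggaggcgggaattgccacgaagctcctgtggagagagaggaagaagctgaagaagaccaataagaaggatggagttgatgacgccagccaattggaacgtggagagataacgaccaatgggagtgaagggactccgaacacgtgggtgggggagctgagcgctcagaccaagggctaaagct
These 5 promoters allow no statement on motifs and levels.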

How the data were processed

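Liver RNA of 6 mouse libraries (3 DHT, 3 placebo) was sequenced in paired-end mode after an NEB Ultra library preparation, per the labels' protocols. The authors deposited whole-number counts per gene, not normalised, with exon lengths and GRCm38 coordinates, per the file headers. Trimmomatic 0.36, STAR 2.5.2b, featureCounts and Subread 1.5.2 are named in the submitters' processing notes, while the strand setting and the handling of multi-mapped reads were not stated there or in the labels. Exons of other genes cover over 10% of the length of 10 members, which makes their counts uncertain.

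The fit used R 4.3.3 with edgeR 4.0.16 (filterByExpr by group, TMM, robust quasi-likelihood test, no covariate) over 15126 genes, Benjamini-Hochberg adjusted, with calls at an adjusted p under 0.05. The SE is the size of the log2 fold change divided by the square root of F. CPM in the text divides counts by all gene counts of the library, and RPKM further divides by exon length. Alternatives used DESeq2 1.42.0, limma 3.58.1 voom and other settings, and the scripts were tested on simulated data. Coding lengths came from a GENCODE annotation of GRCm38, and trends on exon length used a loess span of 0.4. The depth of 41336844 to 60209462 counts per library limits the CPM of rare isoforms by counting error only.

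The members and lists were chosen with earlier results of these data known. Named genes were called members, the 2 of smallest p and the 2 of highest RPKM per complex, all isoform pairs and Sdh genes, the 2 of smallest p per pathway list, and Ddx3y; members named for other values are descriptions. The titles of both groups carry the numbers 1 to 3 and say nothing of a shared litter or day. Deviations from the group means correlated at 0.235, 0.137 and 0.594 between libraries numbered 1, 2 and 3, all above 0.1. A fit with the number as a block is therefore given beside the main fit, which has no block. DHT 1 correlated more with placebo 2 (0.438), and DHT 2 more with placebo 1 (0.278), than with the library of the same number. Whether the numbers mark pairs is thus uncertain, and so are the results with the block.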

Additional observations from a re-analysis of the deposited data

How the results depend on the processing

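Of the 19 alternatives, 16 called 0 members. With the replicate block 1 was called (Uqcrh), with DESeq2 1 (Atp5g1) and with the exon length trend removed together with the replicate block 1 (Atp5g1), and the cause was not tested. The count of called genes among all tested, 250, was 521 without a low-count filter, 1621 with the replicate block, 1062 with DESeq2, 707 with limma voom and sample weights, 495 with length and GC trends removed, 1443 with the length trend removed and the replicate block, and 448 without both libraries numbered 3, a setting added after seeing the data. Leaving out each library in turn gave 84 (without DHT 2) to 862 (without placebo 3). With library size alone, 207 genes were called higher and 89 lower, against 144 higher and 106 lower with TMM. The members' median log2 fold change lay between −0.89 (without placebo 2) and −0.12 (without placebo 3) in the fits that left out 1 library.

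Single members moved across 0 where their fitted value was small or rested on placebo 3. When each library was left out in turn, the fitted value ranged from −1.18 to 0.047 for Uqcr10, −0.998 to 0.12 for Cox7a2, −1.23 to 0.18 for Cox7b and −1.10 to 0.21 for Ndufa4, and outside the members from −1.574 to 0.070 for Usmg5, each highest without placebo 3. In all, 17 of the 80 tested members were fitted below 0 with all libraries and above 0 without placebo 3, up to 0.26 for Ndufs5. For Cox6b2, with under 0.5 CPM in every library, the value ranged from −1.06 to 0.24. Cox6a1 was at 0.11 with the length trend removed and 0.12 with the block as well, and Cox8a at 0.19 and 0.20 in those fits and 0.11 with length and GC trends removed. Besides Uqcrh, the replicate block turned no member's call. DESeq2 called 2 of the 13 mitochondrially encoded genes and 15 of the cytosolic ribosomal protein genes, against 7.03% of all genes. Lengths limit the order of RPKM levels, since the exon length in the tables joins all transcripts of a gene.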
